A study of Homo sapiens with 4 samples.

Results

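The tissue kallikreins are a family of secreted serine proteases. Of them, 9 (KLK5, KLK6, KLK7, KLK8, KLK10, KLK11, KLK12, KLK13 and KLK14) were examined here with SPINK5, the gene of the inhibitor LEKTI. Members were found as every probe set that the platform annotation assigned to exactly 1 of these 10 genes, matched by gene identifier. This gave 22 of 49293 probe sets, belonging to 9 of the 10 genes. No probe set assigned to SPINK5 alone was among the values used, so LEKTI was not analysed here. The cells were SCC-15, an established line of tongue squamous cell carcinoma. Cells of both groups had been seeded 24 h before transfection at 30 nM and were harvested 36 h after it. The mimic group, 2 arrays, received a synthetic double of a mature microRNA, and the control group, 2 arrays, received the non-targeting oligonucleotide miR-NC. The comparison asks how kallikrein messenger RNA differed between cells given the mimic and cells given the control.

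Kallikreins are made as inactive precursors, and several of them activate one another in a cascade on the surface of squamous epithelium. There the trypsin-like KLK5 and KLK14 and the chymotrypsin-like KLK7 cut the desmosomal proteins that hold the outermost cells together. LEKTI holds KLK5, KLK7 and KLK14 in check, and its loss causes Netherton syndrome, a disorder of skin shedding and barrier. Several kallikreins are also known for altered levels in carcinomas.

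The sources disagreed on the mimic: the sample labels call it miR-585-5p, whereas the title of the series has miR-762. Both mature sequences are shown because they differ in the seed (bases 2 to 8, in capitals), the stretch that pairs with target messenger RNAs. They are from RefSeq on GRCh38.p14, at chr16:30893951-30893972 (plus strand) and chr5:169263649-169263670 (minus strand).
hsa-miR-762: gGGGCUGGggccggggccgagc
hsa-miR-585-5p: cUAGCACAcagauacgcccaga
Of the 22 bases of each, 20 were G or C in miR-762 and 12 in miR-585-5p. Among mature human microRNAs in RefSeq, 4 carried the seed of miR-762, itself included, and none other than miR-585-5p carried its seed. No value here depends on which name is right.

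Values are log2 RMA intensities, 1 per probe set and array, and differences are mimic minus control. Levels of different probe sets do not rank genes, since probes differ in brightness. Over all probe sets the correlation was 0.997 and 0.998 within groups and 0.991 between groups. The labels do not say whether replicates were separate cultures, so a p-value here reflects spread that may be technical. The squamous epithelial keratin genes KRT5 (11.79 to 12.32) and KRT14 (9.48 to 10.86) were bright on all 4 arrays. So were the epithelial adhesion genes CDH1 and EPCAM (9.27 to 9.78). The leukocyte gene PTPRC (1.20 to 1.52) and the collagen gene COL3A1 (1.91 to 2.31) lay below the dim level of 2.83 on all 4. The other listed markers of leukocytes, endothelium and fibroblasts lay above it on all 4. These were CD68 (5.62 to 6.10), CD3E (3.39 to 3.50), PECAM1 (4.11 to 4.27), VWF (4.60 to 4.98), COL1A1 (3.85 to 4.34) and PDGFRB (4.30 to 4.60). No probe set was used for KRT6A or TP63.

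Among the 9 kallikrein genes measured, KLK14 and KLK10 rose in the mimic arrays, KLK6 fell, and the other 6 did not pass the test. The increases were 1.65-fold and 1.52-fold and the decrease 1.23-fold, and no member had an estimated difference of 2-fold or more. The 95% intervals of KLK14 and KLK13 reached past 2-fold, with upper ends of 1.03 and 1.19 on the log2 scale. The brightest probe set stood for each gene, and limma was fitted to all 14340 genes above the dim level with Benjamini-Hochberg adjustment. Over all those genes 30.1% passed (17.7% higher and 12.3% lower), so 3 of 9 is close to the background share. The median difference was 0.15 over the 9 members and -0.02 over all genes tested. All 9 genes passed the filter on low values, and 1 of the 2 KLK13 probe sets did not. The mimic arrays were both above the control arrays for 6 members, against 34.2% of all genes, and both below for 2, against 36.3%. When arrays were quantile-normalized once more, 44.0% of all calls were higher where the deposited scaling gave 59.0%, and the same 3 members passed in the same directions.

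These calls were sensitive to single arrays. Without mimic replicate 1, mimic replicate 2 or control replicate 1 no member passed in limma, although 4, 3 and 4 members had an unadjusted p under 0.05. KLK10 alone passed once control replicate 2 was left out. No gene of the 14340 passed without either mimic array, although 4198 and 4269 had an unadjusted p under 0.05. The directions of all 9 differences held under each of these and under every other alternative in which the gene could be tested. With 1 array left out, the difference was 0.53 to 0.68 for KLK10, 0.55 to 0.89 for KLK14 and -0.33 to -0.27 for KLK6.

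**Figure D1:**
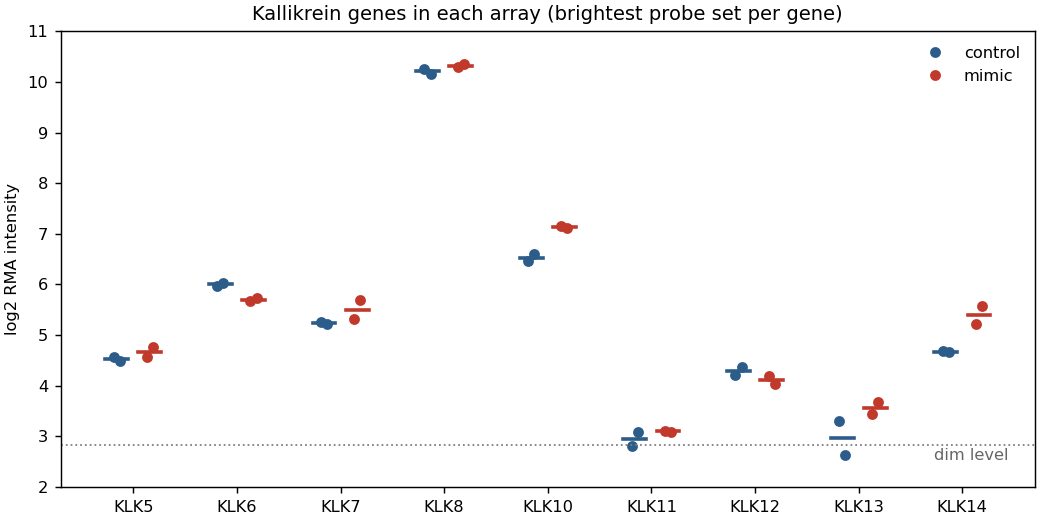
Log2 RMA intensity (vertical axis) of the brightest probe set of each of 9 kallikrein genes (horizontal axis) in the 2 control arrays (blue) and the 2 mimic arrays (red), with lines at group means and a dotted line at the dim level of 2.83. The red points stand clear above the blue for KLK10 and KLK14 and below for KLK6, whereas KLK11 and KLK13 lie near the dim level.

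KLK14 encodes a trypsin-like protease that acts in the skin cascade. Its brightest probe set was at 5.23 and 5.56 in the mimic arrays and at 4.69 and 4.66 in the controls. Both mimic arrays were above both controls, and the mimic arrays differed more from each other than the controls did. The means were 5.40 ± 0.24 and 4.67 ± 0.02 (SD, n = 2), a difference of 0.72 ± 0.12 (SE) with a 95% interval of 0.41 to 1.03 (limma adjusted p = 0.0147). The second KLK14 probe set read 3.44 and 3.93 in the mimic arrays and 3.65 in each control. It is of the _s_at kind, whose probes match more than one transcript. There the groups overlapped and the difference was 0.04 (limma adjusted p = 0.883 over all probe sets). With the mean of both probe sets KLK14 was at 0.38 and did not pass (limma adjusted p = 0.0899).

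KLK10, described first as a gene of normal epithelial cells that tumours often lose, was at 7.16 and 7.12 in the mimic arrays and at 6.45 and 6.60 in the controls. The groups were apart by more than either differed within itself. The means were 7.14 ± 0.03 and 6.53 ± 0.11 (SD, n = 2), and the difference of 0.61 ± 0.074 (SE) had an interval of 0.42 to 0.80 (limma adjusted p = 0.00652). This probe set is also of the _s_at kind. The other KLK10 probe set lay close to the dim level, at 3.26 and 3.20 against 3.12 and 3.06, with both mimic arrays above both controls and a difference of 0.15 that did not pass (limma adjusted p = 0.176 over all probe sets). When probe sets of the _s_at and _x_at kinds were left out, this second value stood for the gene (0.15, limma adjusted p = 0.165).

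KLK6, a trypsin-like protease also called neurosin or protease M, was at 5.67 and 5.73 in the mimic arrays and at 5.97 and 6.03 in the controls. Replicates lay within 0.06 of each other in both groups, and both mimic arrays were lower. The means were 5.70 ± 0.04 and 6.00 ± 0.04 (SD, n = 2), and KLK6 fell by 0.30 ± 0.061 (SE), with an interval of -0.46 to -0.14 (limma adjusted p = 0.0239). Its 4 probe sets did not share a direction. The dimmest fell as well (-0.35, limma adjusted p = 0.0263 over all probe sets), another gave -0.10 with overlapping groups, and the second brightest gave 0.10 with overlapping groups. The brightest and second brightest had mean levels of 5.85 and 5.81, so the choice of the brightest decided between a decrease and no call. The mean over all 4 probe sets was -0.16 and did not pass (limma adjusted p = 0.0857).

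The upstream sequence of these 3 genes is shown because they were the members that passed, KLK10 and KLK14 in one direction and KLK6 in the other. Each is the first promoter window of that gene in the RefSeq table (GRCh38.p14), 250 bases before to 50 after a start of transcription, all on the minus strand of chromosome 19, at chr19:51019812-51020111 for KLK10, chr19:51082807-51083106 for KLK14 and chr19:50969542-50969841 for KLK6. The table holds 2 windows for KLK10 and 3 for KLK14. Capitals mark GGGCGG, the core of the GC box, on either strand.
KLK10: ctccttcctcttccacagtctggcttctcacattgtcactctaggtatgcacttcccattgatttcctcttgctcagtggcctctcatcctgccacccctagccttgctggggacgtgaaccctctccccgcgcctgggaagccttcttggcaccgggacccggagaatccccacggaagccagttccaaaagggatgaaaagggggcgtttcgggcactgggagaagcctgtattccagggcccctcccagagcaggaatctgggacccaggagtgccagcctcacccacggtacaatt
KLK14: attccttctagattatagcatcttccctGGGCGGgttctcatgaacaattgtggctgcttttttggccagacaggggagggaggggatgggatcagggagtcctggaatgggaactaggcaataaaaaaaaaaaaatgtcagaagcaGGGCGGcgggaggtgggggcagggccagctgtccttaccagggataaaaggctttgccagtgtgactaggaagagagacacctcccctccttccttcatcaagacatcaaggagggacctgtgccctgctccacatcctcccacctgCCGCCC
KLK6: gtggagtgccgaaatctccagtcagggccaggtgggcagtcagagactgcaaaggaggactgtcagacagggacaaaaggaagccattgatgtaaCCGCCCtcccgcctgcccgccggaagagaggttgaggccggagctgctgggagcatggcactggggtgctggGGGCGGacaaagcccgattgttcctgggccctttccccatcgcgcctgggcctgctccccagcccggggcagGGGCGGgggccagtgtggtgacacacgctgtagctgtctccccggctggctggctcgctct
The GC box core occurred 3 times in the KLK14 window, 3 times in the KLK6 window and not in that of KLK10. Over the 15 windows listed for 8 of the 9 kallikreins, 9 held it, where 45.0% of all 35116 windows of the table did. Windows of the same gene can overlap and share a match, and the 9 belong to 5 genes (KLK6, KLK7, KLK11, KLK13 and KLK14). None of the 15 held TATAAA, the TATA box core (11.5% of all windows), or TGANTCA, a site for the AP-1 factors (7.71%). Both were searched on both strands. No window was listed for KLK8. These are matches of letters and say nothing of binding.

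Neither KLK5 nor KLK7, which act with KLK14 in the skin cascade, passed the test. KLK5, the trypsin-like enzyme that activates KLK7 and KLK14, was at 4.57 and 4.77 in the mimic arrays and at 4.57 and 4.48 in the controls. Mimic replicate 1 and control replicate 1 had the same value to 2 decimals, so the groups overlapped. The difference was 0.14, with an interval of -0.08 to 0.37 (limma adjusted p = 0.263). KLK7, the chymotrypsin-like enzyme, was at 5.32 and 5.69 against 5.27 and 5.22. Mimic replicate 2 stood apart from the other 3 arrays. Its difference of 0.26 had an interval of -0.08 to 0.60 (limma adjusted p = 0.188), and without mimic replicate 2 it was 0.07. The second KLK7 probe set lay at the dim level and gave 0.06.

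KLK8, also called neuropsin, was far above the dim level in all 5 of its probe sets. In the brightest it was at 10.29 and 10.34 in the mimic arrays and at 10.26 and 10.16 in the controls. The mimic arrays were higher by a margin smaller than the spread between controls. The difference was 0.11, and its interval of -0.06 to 0.28 left no room for a change of 2-fold (limma adjusted p = 0.247). All 5 KLK8 probe sets, which target the same gene and are no replicates, gave positive differences between 0.04 and 0.18, and none passed.

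KLK11 and KLK13 lay near the dim level of 2.83, and KLK12 lay above it. KLK13 was at 3.44 and 3.68 in the mimic arrays and at 3.31 and 2.63 in the controls. Control replicate 2 was low, below the dim level, and the control SD was 0.48. The difference of 0.59 had an interval of -0.01 to 1.19 (limma adjusted p = 0.116). It was 0.25 without control replicate 2 and 0.93 without control replicate 1. The second KLK13 probe set, under the filter and therefore not tested, gave -0.12. KLK11, a trypsin-like protease, was at 3.11 and 3.09 against 2.82 and 3.09, and its difference of 0.15 came to 0.01 without control replicate 1. KLK12 was at 4.20 and 4.03 against 4.21 and 4.38, with a difference of -0.18 and an interval of -0.42 to 0.06 (limma adjusted p = 0.197). All 3 of its probe sets had negative differences, from -0.29 to -0.14, and none passed. The groups overlapped in the probe set at -0.29.

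**Figure D2:**
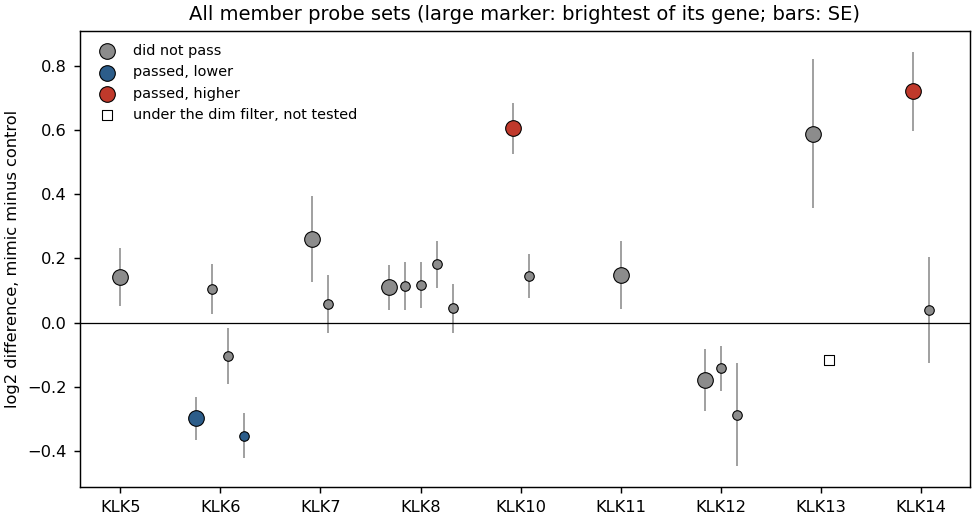
Log2 difference, mimic minus control (vertical axis), of all 22 probe sets of the 9 kallikrein genes (horizontal axis), with limma standard errors as bars. Large markers are the brightest probe set of a gene, and colours show whether it passed. Only the brightest probe sets of KLK10 and KLK14 passed as higher, and 2 of 4 KLK6 probe sets passed as lower.

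Of the 22 member probe sets, 21 were above the dim filter. In a fit over all 31711 probe sets with 1 gene symbol above it, 2 rose, 2 fell and 17 did not pass, where 22.4% of all probe sets passed (14.5% higher and 7.95% lower). Both mimic arrays were above both controls in 10 of the 22 (33.4% over all probe sets tested) and below them in 4 (33.2%). Among the 7 genes with several probe sets, KLK6 and KLK13 had both signs. The probe sets of KLK7, KLK8, KLK10 and KLK14 were all positive and those of KLK12 all negative.

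The 15 tissue kallikrein genes lie together on chromosome 19 (order from RefSeq GRCh38.p14). Their order is KLK1, KLK15, KLK3, KLK2, KLK4, KLK5, KLK6, KLK7, KLK8, KLK9 and KLK10 to KLK14. Another protein-coding gene is listed between KLK4 and KLK5. In the brightest probe set of each, the 6 kallikreins that were not members were all lower in the mimic arrays. Their 26 probe sets, of which 15 were above the dim filter, gave 24 negative and 2 positive differences. KLK2 and KLK3 each had 1 of the positive ones. KLK2, whose product activates the prostate-specific antigen made by KLK3, fell by 0.48 (limma adjusted p = 0.019), and KLK4, a protease of tooth enamel, fell by 0.40 (limma adjusted p = 0.032). KLK15 (-0.39), KLK9 (-0.34), KLK1 (-0.23) and KLK3 (-0.12) did not pass. Within the run from KLK5 to KLK14 both signs occurred, and KLK9 lay between KLK8 (0.11) and KLK10 (0.61) with a difference of -0.34. The difference between members and the other kallikreins was not tested.

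The brightest probe sets of the 6 other kallikreins had mean levels from 3.44 to 5.02. The brightest probe sets of the members KLK5 (4.60) and KLK12 (4.21) lay in that range, and that of KLK14 was just above it at 5.03. Of the 3522 genes tested in that range 65.0% had negative differences and 13.8% fell, with a median of -0.10, against -0.36 for the 6. KLK2 and KLK3 are close paralogs that these probe sets may fail to tell apart. Only 1 of the 5 KLK2 probe sets above the filter passed. Without probe sets of the _s_at and _x_at kinds, KLK2 was at -0.15 and KLK4 at -0.18, and neither passed. Neither passed when any single array was left out.

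**Figure D3:**
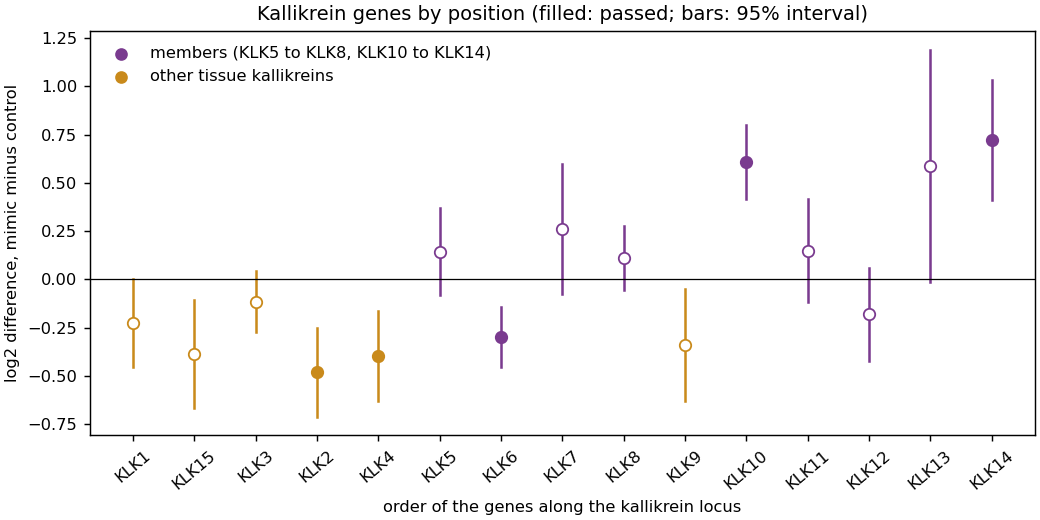
Log2 difference, mimic minus control (vertical axis), of the 15 tissue kallikrein genes in their order along the chromosome (horizontal axis), with 95% intervals. Filled points passed the test, purple marks the members and orange the other kallikreins. All 6 orange points lie below 0, from -0.48 to -0.12, and 7 of 9 purple points above it.

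Other genes of the kallikrein network came from lists of partner proteases, inhibitors and targets. Of 5 trypsin-like membrane proteases of squamous epithelium that were tested, 4 fell and 1 rose, where 12.3% of all genes fell and 17.7% rose. TMPRSS13 fell by 0.64 ± 0.10 (SE, limma adjusted p = 0.0136) and TMPRSS11E, also known as DESC1, by 0.56 ± 0.074 (limma adjusted p = 0.00772). Only 1 of the 3 TMPRSS13 probe sets lay above the dim filter, and the 3 ranged from -0.64 to 0.16. TMPRSS4 fell by 0.41 and PRSS8, the gene of prostasin, by 0.28. ST14, the gene of matriptase, which can activate kallikrein precursors, rose by 0.24 ± 0.058 (limma adjusted p = 0.0352). The list's median was -0.41, and TMPRSS11D was below the dim filter. The 9 probe sets of TMPRSS4 ranged from -0.41 to 0.66, and the mean of the 8 above the dim filter gave -0.00. With the mean of all probe sets above the filter, the calls of TMPRSS4, ST14 (0.16) and PRSS8 (-0.21) were lost. After quantile normalization ST14 was at 0.14 and did not pass.

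Inhibitors went both ways, with 2 of the 7 tested higher, 2 lower and 3 not passing (median -0.09). Over all genes tested 17.7% were higher and 12.3% lower. SPINK6, a Kazal-type inhibitor of kallikreins related to LEKTI, was at 7.52 and 7.58 in the mimic arrays and at 6.96 and 6.97 in the controls. Replicates nearly coincided and the groups were well apart. SPINK6 rose 1.50-fold (0.59 ± 0.058 SE, limma adjusted p = 0.00395). SPINT2, an inhibitor of matriptase and prostasin, was at 10.91 and 10.97 against 10.22 and 10.09, and it rose 1.73-fold (0.79 ± 0.071, limma adjusted p = 0.00317). The secreted serpin SERPINA3 was at 9.05 and 9.11 against 10.16 and 9.81. It fell 1.87-fold, with a difference of -0.91 ± 0.12 (limma adjusted p = 0.00874). SERPINA5, the protein C inhibitor, which binds several kallikreins, fell 1.69-fold (limma adjusted p = 0.018). SPINT1, SPINK4 and A2ML1 gave differences of -0.09, -0.10 and 0.17 and did not pass. The other 5 inhibitors listed (SPINK1, SPINK2, SPINK7, SPINK9 and A2M) were below the dim filter.

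Among substrates and receptors the corneodesmosome genes CDSN, DSG1 and DSC1 and the filaggrin gene FLG were below the dim filter. CAMP, whose cathelicidin product KLK5 and KLK7 process in skin, fell by 0.24 at a dim level (3.82 in both mimic arrays, 4.10 and 4.02 in the controls; limma adjusted p = 0.0427). That call was lost in 11 of 13 alternatives. F2RL1 had no probe set among those used. Of the 19 genes tested in the 4 lists together 3 rose and 9 fell, beside shares of 17.7% and 12.3% over all genes. Without mimic replicate 1 or 2, none of the 19 passed in limma, with 9 and 12 at an unadjusted p under 0.05. On dropping control replicate 1, 1 was called higher and 1 lower, and leaving out control replicate 2 gave 2 and 2.

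**Figure D4:**
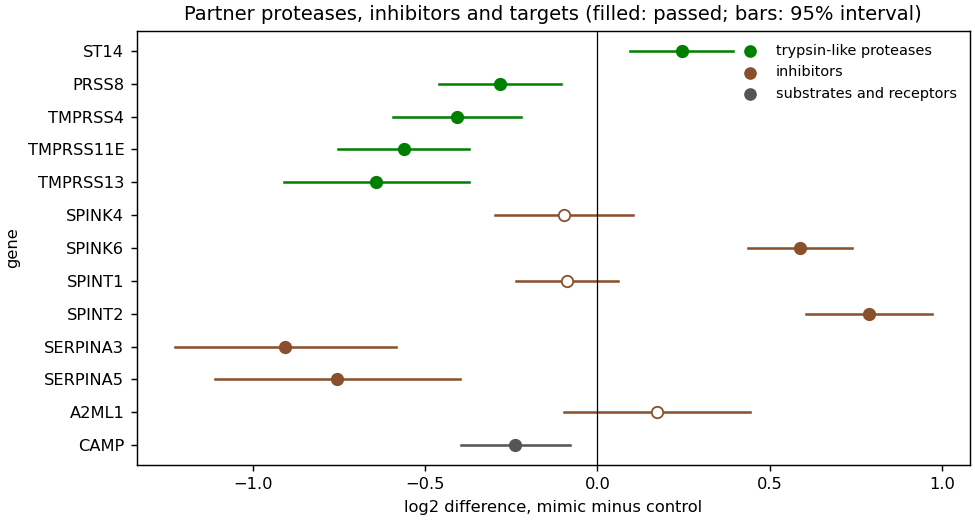
Log2 difference, mimic minus control (horizontal axis), of the partner proteases (green), inhibitors (brown) and targets (grey) that were tested, with 95% intervals. Filled points passed the test. SPINK6 and SPINT2 lie to the right of 0 at 0.59 and 0.79, and SERPINA3 and SERPINA5 to the left at -0.91 and -0.75.

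Of the 4 squamous epithelial markers with a probe set, of 6 listed, KRT5 and KRT14 rose (differences of 0.48 and 1.15; limma adjusted p = 0.00653 and 0.00479). CDH1 (0.04, with overlapping groups) and EPCAM (0.15) did not pass. The summed intensity of the 4 was 5757 and 6091 in the control arrays and 8329 and 8554 in the mimic arrays. That of the 3 leukocyte markers was 63.0 to 67.5 in controls and 75.7 to 81.5 in mimic arrays. Among them CD68, a gene of macrophage lysosomes, rose by 0.34 (limma adjusted p = 0.0398), CD3E was at -0.02 with overlapping groups, and PTPRC lay below the dim level on all 4 arrays. The 3 fibroblast markers summed to 47.4 to 49.3 in controls and 38.3 to 45.4 in mimic arrays, and the 2 endothelial markers to 48.4 to 49.2 and 43.5 to 45.3. COL1A1 (-0.25), PDGFRB (-0.17), PECAM1 (0.08) and VWF (-0.28) did not pass, and COL3A1 was below the dim level. The part of these values in the kallikrein differences was not tested. In RNA from whole cultures, fewer cells that express a gene and less RNA per cell cannot be told apart.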

How the data were processed

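The authors deposited 1 intensity per probe set and array, on a linear scale. Per the submitters' processing notes these came from RMA; the version is not given in the sources used here. RMA compresses differences of dim probe sets. No detection calls were used, and the number of arrays limits the precision. Log2 was taken without a pseudocount. Of 49293 probe sets, 44988 had 1 gene symbol in the platform annotation, and current symbols came from RefSeq by gene identifier. The dimmest 30% of probe sets (mean log2 below 2.83) were dropped, and the brightest probe set stood for each gene.

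The test was limma 3.58.1 (R 4.3.3; lmFit and eBayes) over all genes, or all probe sets, with Benjamini-Hochberg adjustment at 0.05. Errors are moderated standard errors, and 95% intervals use 4.98 degrees of freedom. For 2 against 2 arrays the smallest exact permutation p is 0.333. The genes named are all members and, per list, up to 4 with the largest difference among those that passed, or the 2 with the largest moderated t; others are named because they did not pass, were dim or had no probe set. Members and lists were chosen with earlier results of these data known. The 14 alternatives varied the filter, scaling, pseudocount, variance model, replicate block, probe sets and arrays.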

Additional observations from a re-analysis of the deposited data

How the results depend on the processing

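All 9 member differences kept their sign in every alternative that could test them; with the lowest 50% of probe sets left out, KLK11 and KLK13 were not tested. KLK10 passed in 10 of 14 alternatives, KLK14 in 9 and KLK6 in 9. With the mean of all probe sets above the dim filter 1 member was higher (KLK10) and 0 lower. Without probe sets of the _s_at and _x_at kinds 1 was higher (KLK14). The count of member probe sets that fell, 2 as reported, was 1 without a dim filter, 1 with the lowest 50% left out and 1 with a pseudocount of 16. With the lowest 50% left out, the dimmest KLK6 probe set was itself under the filter and not tested. Pathway list genes that fell, 9 as reported, numbered 5 without _s_at and _x_at probe sets. There 18 list genes could be tested, and TMPRSS11E, which fell as reported, was not among them. On leaving out 1 array, genes over the whole array numbered 0 to 796 higher and 0 to 167 lower, members 0 to 1 higher and 0 to 0 lower, member probe sets 0 to 0 in both directions in limma (4 to 6 of them at an unadjusted p under 0.05), and list genes 0 to 2 in both directions. There the lone array of a group is assumed to vary like the other group. In these cases fewer arrays enter the fit. The cause was not tested for the other shifts.

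The labels share replicate numbers between groups, but nothing says that they pair cultures, and the replicate differences of the groups correlated at -0.00 over probe sets. With the replicate block 979 genes were lower, 5 list genes were lower and 0 member probe sets were lower in limma (2 at an unadjusted p under 0.05), while KLK10, KLK14 and KLK6 passed as genes (limma adjusted p = 0.0263, 0.0347 and 0.0491).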

Other observations

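One probe set is assigned to both KLK8 and its neighbour KLK9 and was therefore not counted as a member. It was at 6.42 and 6.37 in the mimic arrays and at 6.51 and 6.55 in the controls, lower in both mimic arrays, with a difference of -0.13. The probe sets of KLK8 alone gave 0.04 to 0.18 and that of KLK9 alone gave -0.34.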
